A study of Mus musculus with 18 samples.

Results

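The subject is how the cardiac effect of deleting the serum response factor gene (Srf) at day 25 after tamoxifen compared with its effect at day 8. The members are the 12 of 18 arrays in the series that carried no phenylephrine, chosen by their sample titles. They were 3 SRFHKO and 3 control hearts at day 25, and 4 SRFHKO and 2 control hearts at day 8. All came from male mice of strain CR7BL6, labelled as 10 weeks old. Each array read the ventricles of 1 heart. SRFHKO mice and their controls, which were SRF-flex2neo littermates, were all given 0.7 mg of tamoxifen by intraperitoneal injection for 3 days, so tamoxifen itself is common to both genotypes. The recombinase that tamoxifen activates, and the cell type that expresses it, are not named in the sources used here. As the controls are described only as SRF-flex2neo littermates, an effect of the activated recombinase cannot be told apart from that of the deletion. The deletion effect on a day is the SRFHKO mean minus the control mean, on the scale log2(scaled signal + 2), and the difference is the day 25 effect minus the day 8 effect. The 2 effects share no array. The remaining hearts of the series, 3 SRFHKO and 3 control at day 25, received phenylephrine at 80 mg per kg per day from day 10 to day 25. Their arrays entered the filter and the fit, and their values are given only where phenylephrine is named.

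SRF is a transcription factor that binds a DNA element called the CArG box, mostly as a partner of actin-sensing cofactors of the myocardin family or of ETS-domain proteins that respond to growth factor signalling. In heart muscle it drives genes for actin, for other parts of the contractile apparatus and for immediate early proteins. Its loss in adult mouse heart is known to lead to dilated cardiomyopathy over weeks. How far the hearts of either day had remodelled was not tested here.

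The arrays of the 2 days differed before any scaling. Their 2% trimmed mean signal was 71.2 to 83.5 in SRFHKO hearts and 46.6 to 68.5 in control hearts at day 25, against 110 to 148 in SRFHKO hearts and 125 to 138 in control hearts at day 8. The day therefore cannot be told apart from whatever set the brightness, and no genotype was tested against itself between days. Where hearts of the 2 days are set side by side below, this is a description that carries the same limit. The difference of the 2 deletion effects cancels a shift that both genotypes of a day share. Other array features separated the genotypes as well. The 3' to 5' signal ratio of the Gapdh control probe sets was 0.820 to 0.835 in SRFHKO hearts against 0.868 to 0.945 in control hearts at day 25, and 0.850 to 0.936 against 1.01 to 1.02 at day 8. The 18S ribosomal RNA control probe set read 705 to 1402 in SRFHKO hearts against 2426 to 3069 in control hearts at day 8, while its ranges overlapped at day 25. Their part in the results below was not tested. Srf itself gives no check on the labels: the position of its probe sets relative to the deleted part is not known here, and its signal differed between genotypes by -0.06 ± 0.19 at day 25 and by 0.23 ± 0.20 at day 8 (log2 effect ± SE).

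No gene differed in its deletion effect between the days after adjustment. Of 12610 genes tested with limma, 0 were past an adjusted p of 0.05 in either direction (0%), and the smallest adjusted p was 0.115. At an unadjusted p under 0.05 there were 1407 genes (11.2%). The day 25 effect alone was past the threshold in 295 genes (2.34%), of which 159 were higher (1.26%) and 136 lower (1.08%) in SRFHKO hearts. The day 8 effect alone was past it in 8 genes (0.0634%), 6 higher (0.0476%) and 2 lower (0.0159%). These 2 counts do not show that the effects differ, because a gene past the threshold on 1 day alone need not differ between days. The median standard error was 0.295 for the difference, 0.202 for the day 25 effect and 0.214 for the day 8 effect. The mean of the 2 effects, with a median standard error of 0.147, was past the threshold in 117 genes (0.928%), 64 higher (0.508%) and 53 lower (0.42%). Across the 12610 genes the 2 effects had a Pearson correlation of 0.0923, given as a description over genes that are not independent. The counts leaned on single arrays. Without SRFHKO replicate 3 of day 25 the day 25 counts were 24 higher and 32 lower, and with array brightness as a covariate they were 22 and 17. Without control replicate 1 of day 8, 10 higher and 5 lower genes were past the threshold for the difference, and 21 and 30 for the day 8 effect. The plot of one effect against the other shows where the called genes lay.

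**Figure D1:**
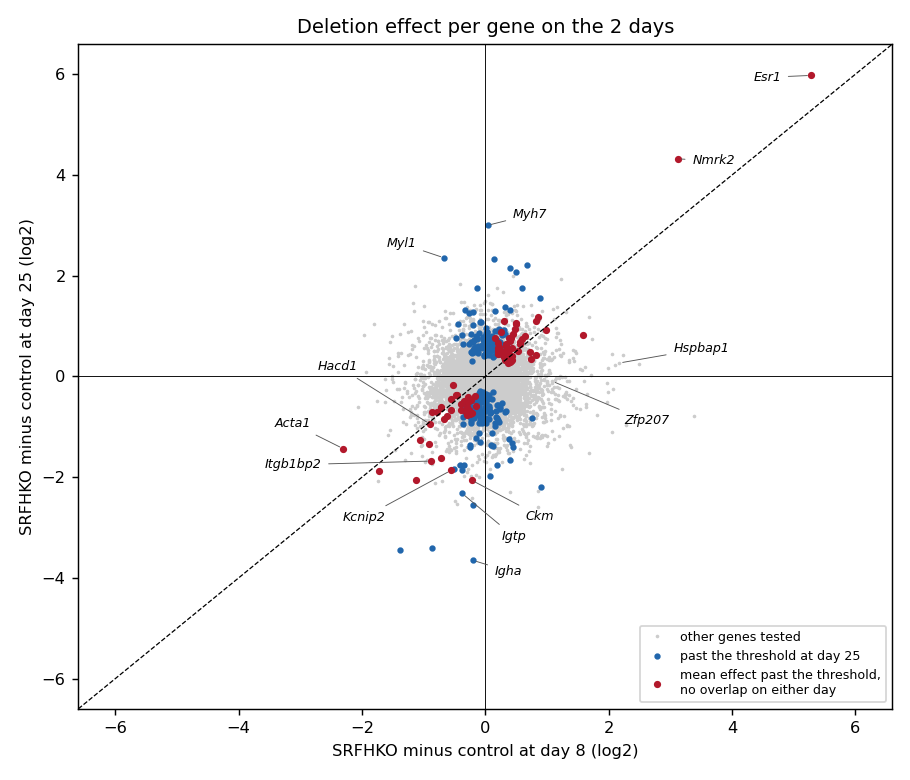
Deletion effect of each of 12610 genes, SRFHKO minus control in log2, at day 25 (vertical axis) and at day 8 (horizontal axis). Red points are the 83 genes whose mean effect was past an adjusted p of 0.05 with genotypes apart on both days, blue points are the other genes past it at day 25, and the dashed line marks equal effects. Nmrk2 and Esr1 lie far out near the line, while Myh7, Ckm and Igtp lie near the vertical axis.

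Of all genes tested, 4 were past the threshold on both days in the same direction (0.0317%). Nmrk2 and Esr1 were higher in SRFHKO hearts, and Acta1 and Hacd1 were lower. All 4 leaned on control replicate 2 of day 8, where the control group held only 2 hearts. Nmrk2 alone was past the threshold on both days in the fit on the 12 arrays alone and without the intensity trend. The same held without SRFHKO replicate 3 of day 8.

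Nmrk2 (chromosome 10) encodes nicotinamide riboside kinase 2, a muscle enzyme that phosphorylates nicotinamide riboside on its way to NAD. Its log2 signal was 10.56, 9.75 and 10.16 in SRFHKO hearts against 5.97, 5.45 and 6.09 in control hearts at day 25. At day 8 it was 8.86, 7.66, 7.69 and 9.53 in SRFHKO hearts against 5.70 and 4.93 in control hearts. The genotypes were far apart on both days, and the 3 SRFHKO hearts of day 25 lay above the other 9 hearts. The day 25 effect was 4.32 ± 0.36, or 20.0-fold higher (adjusted p = 5.56e-06), and the day 8 effect was 3.12 ± 0.39, or 8.69-fold higher (adjusted p = 0.00221). The difference of 1.20 had a 95% interval of 0.09 to 2.31 and an adjusted p of 0.41. Leaving out any 1 array kept the day 25 call, whereas the day 8 call was lost without control replicate 2 (adjusted p = 0.098). Nmrk2 was the only one of 20 measured genes of NAD synthesis and use past the threshold on either day, and the median over those 20 was -0.10 at day 25 and 0.01 at day 8.

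Esr1 (chromosome 10), the gene of estrogen receptor alpha, read 9.46, 7.88 and 10.50 in SRFHKO hearts against 3.39, 2.03 and 4.51 in control hearts at day 25. At day 8 it read 9.91, 6.18, 8.69 and 8.57 in SRFHKO hearts against 3.16 and 2.96 in control hearts. All control hearts but 1 lay at or below the filter limit of 3.58 that stands in for background, so the fold is a bound: at least 42.0-fold higher at day 25 (adjusted p = 0.000562) and at least 27.1-fold higher at day 8 (adjusted p = 0.0119). With both effects only bounded, no size is given for their difference. A second Esr1 probe set gave -0.29 ± 0.35 at day 25 and -0.15 ± 0.37 at day 8. As background, tamoxifen-inducible recombinases are commonly built as fusions that carry a mutated estrogen receptor ligand-binding domain. Which transcript the first probe set read was not tested.

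Acta1 (chromosome 8) encodes skeletal alpha-actin, which the mouse ventricle makes before birth and again under load. It read 8.90, 8.29 and 9.19 in SRFHKO hearts against 10.32, 9.81 and 10.55 in control hearts at day 25. At day 8 it read 8.31, 9.23, 8.74 and 8.91 in SRFHKO hearts against 10.23 and 11.99 in control hearts. The SRFHKO hearts of both days fell in the same range, and no SRFHKO heart reached any control heart. The day 25 effect was -1.43 ± 0.36, or 2.70-fold lower (adjusted p = 0.0408), and the day 8 effect was -2.31 ± 0.38, or 4.96-fold lower (adjusted p = 0.0196). The larger size at day 8 came from 1 array: without control replicate 2 the day 8 effect was -1.43 (adjusted p = 0.31) and the difference was -0.00338, against 0.88 with all arrays (95% interval -0.22 to 1.97). The day 25 call was also lost in 7 of the 12 fits that left out 1 array.

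Hacd1 (chromosome 2) encodes a muscle-rich dehydratase of very long chain fatty acid elongation. Its log2 signal was 9.49, 8.92 and 9.08 in SRFHKO hearts against 10.38, 9.93 and 10.01 in control hearts at day 25, and 9.68, 9.46, 9.75 and 9.86 in SRFHKO hearts against 10.58 and 10.61 in control hearts at day 8. The effects were -0.94 ± 0.15 (adjusted p = 0.00298) and -0.90 ± 0.15 (adjusted p = 0.0261), and the genotypes did not overlap on either day. The difference of -0.04 had a 95% interval of -0.49 to 0.40, so a change in the effect of up to these sizes cannot be set aside. A second probe set gave -1.04 and -0.64. The day 8 call was lost in 5 of the 12 fits that left out 1 array, with effects between -0.96 and -0.83 over all alternatives.

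**Figure D2:**
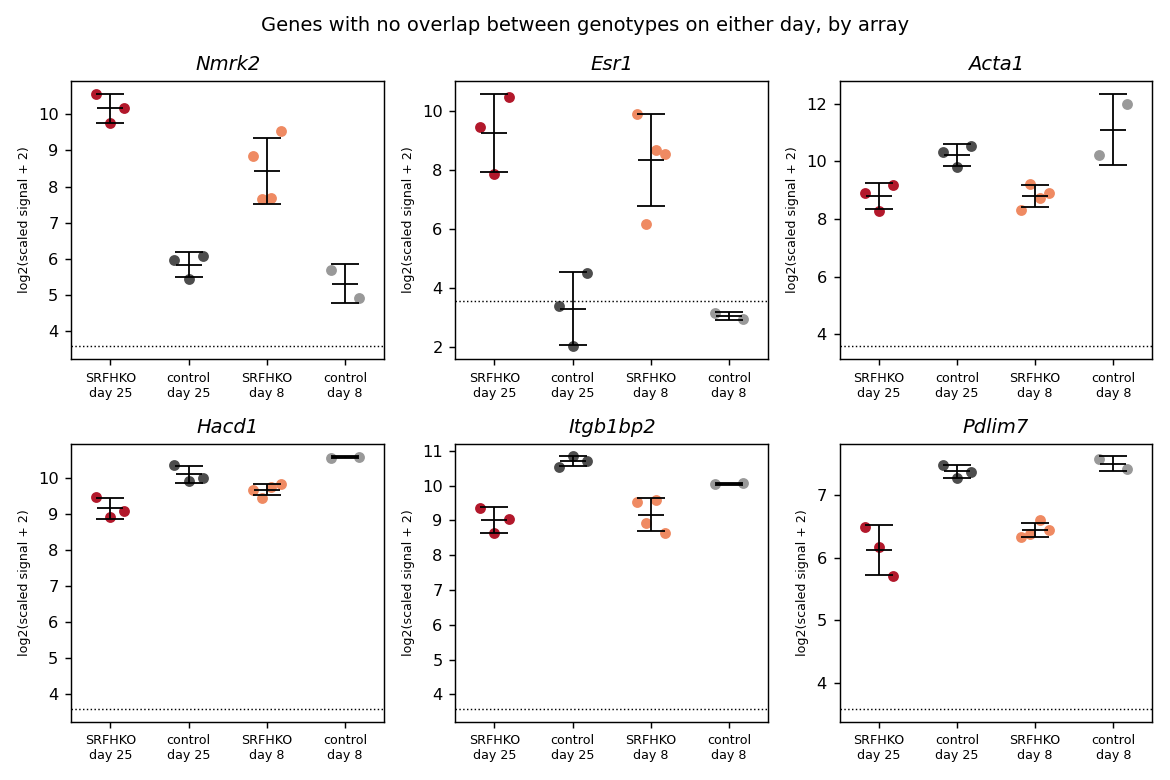
Log2(scaled signal + 2) per heart for Nmrk2, Esr1, Acta1, Hacd1, Itgb1bp2 and Pdlim7 in SRFHKO and control hearts at day 25 and at day 8. Points are single arrays, bars are the group mean ± SD, and the dotted line is the filter limit of 3.58; in each panel no SRFHKO heart lies within the range of the control hearts of its day.

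A wider set of lasting effects was read from the mean of both days. In 83 genes (0.658%) the mean effect was past the threshold and the genotypes did not overlap on either day, 48 of them higher and 35 lower in SRFHKO hearts. The median effect of the 48 was 0.57 at day 25 and 0.40 at day 8, and that of the 35 was -0.70 and -0.53. The size was larger at day 25 in 35 of the 48 and in 26 of the 35. The rule for these genes used both days, so these values describe them and support nothing further. Genotypes apart on both days are part of that rule, also where single genes of the set are described below. Of all genes tested, the genotypes did not overlap in 21.6% at day 25 and in 18.5% at day 8. They did so on both days in the same direction in 3.01%. The difference between the days had an unadjusted p under 0.05 in 9 of the 48 and 11 of the 35, against 11.2% of all genes.

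Among the lower genes were proteins of the muscle cell's adhesion sites and cytoskeleton. Itgb1bp2 (chromosome X) encodes melusin, a muscle-specific protein that binds integrin beta1 at costameres. It read 9.37, 8.64 and 9.03 in SRFHKO hearts against 10.55, 10.84 and 10.70 in control hearts at day 25, and 9.52, 8.92, 9.59 and 8.64 in SRFHKO hearts against 10.03 and 10.07 in control hearts at day 8. SRFHKO hearts lay in a similar range on both days, while the 3 control hearts of day 25 stood above the other 9 hearts. Its effects were -1.68 ± 0.21 at day 25 (adjusted p = 0.000476) and -0.89 ± 0.22 at day 8 (adjusted p = 0.20). Pdlim7 (chromosome 13), a PDZ and LIM domain protein of actin structures, had effects of -1.26 ± 0.20 and -1.06 ± 0.22, with adjusted p-values of 0.00444 and 0.13. Its SRFHKO hearts read 6.50, 6.17 and 5.70 against 7.48, 7.27 and 7.38 in control hearts at day 25, and 6.33 to 6.59 against 7.58 and 7.42 at day 8. The groups were apart on both days for this probe set, whereas 2 dimmer Pdlim7 probe sets gave -0.50 and -0.33 at day 25 and -0.27 and 0.02 at day 8.

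Ptges3l (chromosome 11) fell in the mean effect by 1.59 on the log2 scale (adjusted p = 0.00017), with effects of -2.05 ± 0.24 at day 25 and -1.13 ± 0.26 at day 8. Ces1d (chromosome 8), a carboxylesterase that hydrolyses triglyceride, had effects of -1.61 ± 0.22 and -0.72 ± 0.23. Itga9, the integrin alpha9 subunit, had effects of -0.85 and -0.67. Ppargc1b, a coactivator of mitochondrial gene expression, had effects of -0.67 and -0.56, and Ndufs7, a subunit of respiratory complex I, of -0.49 and -0.35. Each of these 5 had its SRFHKO hearts below its control hearts on both days, as the rule for lasting genes requires. For each, the larger of the 2 effects was that of day 25. The mean effect of Ppargc1b lost its call in 9 of the 12 fits that left out 1 array, and that of Ndufs7 in 3.

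Among the lasting rises, Prkg1 (chromosome 19), the cGMP-dependent protein kinase, read 8.28, 8.17 and 8.42 in SRFHKO hearts against 6.87, 7.08 and 7.38 in control hearts at day 25. At day 8 it read 8.70, 8.01, 7.91 and 7.96 in SRFHKO hearts against 7.37 and 7.22 in control hearts. The groups were apart on both days, as the rule requires, with effects of 1.18 ± 0.21 and 0.85 ± 0.23. Il13ra1 (chromosome X), a receptor subunit for interleukin 13, had effects of 0.95 ± 0.14 and 0.47 ± 0.15. Abhd3 (chromosome 18), a phospholipase, had effects of 1.10 ± 0.20 and 0.82 ± 0.21. The mean effects of Prkg1, Il13ra1 and Abhd3 stayed past the threshold in all 12 fits that left out 1 array.

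Kcnj11 (chromosome 7), the pore subunit of the ATP-sensitive potassium channel, had effects of 0.74 ± 0.17 and 0.59 ± 0.18, and without control replicate 2 of day 8 its mean effect lost the call (adjusted p = 0.075). Rprm (chromosome 2), an inhibitor of the cell cycle, had fitted effects of 0.82 ± 0.37 at day 25 and 1.59 ± 0.39 at day 8. Control replicate 2 of day 8 read 2.43, below the filter limit of 3.58, against 4.31 in replicate 1, so the day 8 size is not exact. Without that array the mean effect of Rprm was 0.73, below its day 25 effect, so the larger size at day 8 came from that array. The call for its mean effect was lost in 9 of the 12 fits that left out 1 array.

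The CArG box was looked for in the 250 bases before the transcription start of these genes, as given by RefSeq on build GRCm38.p6. Both strands were covered, and its strict form was used, with only A or T between CC and GG and no mismatch. It was present for 4 of 29 lasting-lower genes with a promoter sequence (13.8%), namely Acta1, Gstp1, Fermt2 and Gm9895, and for 0 of 38 lasting-higher genes, against 145 of 10146 genes tested (1.43%). For the genes past the threshold at day 25 it was present in 10 of 118 lower genes (8.47%) and 3 of 124 higher genes (2.42%). These shares are a description, and a match is not evidence of binding. The sequences below are shown because they set 2 lasting-lower genes that hold the box against Nmrk2 and Hacd1, which were past the threshold on both days and held none. The box is in capitals, and each sequence ends at the base before the start of the transcript. Acta1 lies at chr8:123894776-123895025 on the minus strand, Gstp1 at chr19:4037913-4038162 on the minus strand, Nmrk2 at chr10:81202038-81202287 on the minus strand and Hacd1 at chr2:14056036-14056285 on the minus strand.
Acta1: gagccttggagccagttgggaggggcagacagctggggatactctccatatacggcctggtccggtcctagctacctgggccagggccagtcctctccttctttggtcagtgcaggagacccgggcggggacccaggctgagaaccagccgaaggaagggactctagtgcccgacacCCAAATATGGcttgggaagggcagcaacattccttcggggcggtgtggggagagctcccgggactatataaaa
Gstp1: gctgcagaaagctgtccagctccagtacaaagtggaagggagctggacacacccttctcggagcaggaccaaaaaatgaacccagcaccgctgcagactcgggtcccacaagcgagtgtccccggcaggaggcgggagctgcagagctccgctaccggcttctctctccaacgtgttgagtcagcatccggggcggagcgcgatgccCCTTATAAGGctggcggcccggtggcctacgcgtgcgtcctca
Nmrk2: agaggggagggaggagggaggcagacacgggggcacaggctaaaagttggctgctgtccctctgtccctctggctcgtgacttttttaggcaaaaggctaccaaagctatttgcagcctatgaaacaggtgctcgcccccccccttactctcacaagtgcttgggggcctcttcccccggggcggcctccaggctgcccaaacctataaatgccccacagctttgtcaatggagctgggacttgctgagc
Hacd1: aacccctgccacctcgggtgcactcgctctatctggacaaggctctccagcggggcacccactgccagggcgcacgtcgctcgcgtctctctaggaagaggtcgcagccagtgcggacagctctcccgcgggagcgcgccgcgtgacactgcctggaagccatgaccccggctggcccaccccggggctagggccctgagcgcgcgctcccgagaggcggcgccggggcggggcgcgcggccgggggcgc
In Acta1 the box began 73 bases before the start, and in Gstp1, which encodes a glutathione transferase and had effects of -0.61 ± 0.09 at day 25 (adjusted p = 0.00218) and -0.30 ± 0.10 at day 8 (adjusted p = 0.34), it began 43 bases before the start. No box was found in the windows of Kcnip2, Ckm, Pdlim7 and Esr1.

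Genes past the threshold at day 25 were followed to the day 8 arrays. Those arrays did not enter the day 25 effect, but they shared the filter, the choice of probe set and the variance estimate with it, so the choice was not fully independent of them. The 159 higher genes had a median effect of 0.64 at day 25, the values that chose them, and of 0.09 at day 8. At day 8, 111 of them (69.8%) were above 0, against 49.5% of all genes tested, and 23 (14.5%) had an unadjusted p under 0.05 in the same direction, against 4.4% of all genes. The opposite direction had 3. The 136 lower genes had a median of -0.72 at day 25 and -0.10 at day 8. At day 8, 92 of them (67.6%) were below 0, against 50.5% of all genes, and 18 (13.2%) had an unadjusted p under 0.05 in that direction, against 4.34% of all genes, with 2 in the opposite one. In the 6 further hearts of day 25 that received phenylephrine, SRFHKO minus control had the same sign in 148 of the 159 and 120 of the 136, against 62.4% of all genes. As in the hearts without it, SRFHKO arrays were the brighter before scaling, with trimmed means of 75.9 to 85.4 against 52.5 to 75.3. The part of brightness in this agreement was not tested.

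For many of these genes 1 group of day 25 stood apart from the other 9 arrays. The SRFHKO hearts of day 25 were above all others in 71 of the 159 higher genes, and the control hearts of day 25 were below all others in 59, against 2.94% and 2.12% of all genes. Of the 136 lower genes, the SRFHKO hearts of day 25 were below all others in 70 and the control hearts of day 25 were above all others in 39, against 3.4% and 3.18%. As the day 25 arrays also chose these genes, the counts are a description and exceed those of all genes by construction.

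The genes with the smallest p for the difference, none past the threshold, show both forms. Ckm (chromosome 7) encodes muscle creatine kinase, which regenerates ATP from phosphocreatine in the myofibril. It read 10.87, 9.76 and 10.65 in SRFHKO hearts against 12.59, 12.42 and 12.46 in control hearts at day 25, and 12.14, 11.91, 12.19 and 11.93 in SRFHKO hearts against 12.33 and 12.20 in control hearts at day 8. The low group was the SRFHKO hearts of day 25, and at day 8 the genotypes were apart by little. The effects were -2.06 ± 0.22, or 4.17-fold lower (adjusted p = 0.000134), and -0.23 ± 0.23 (adjusted p = 0.86), and the difference was -1.83 with a 95% interval of -2.51 to -1.16 (adjusted p = 0.115). A dimmer second Ckm probe set gave -1.39 ± 0.33 at day 25 and -1.10 ± 0.35 at day 8, a difference of -0.29, so the contrast between days was not seen there.

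Kcnip2 (chromosome 19) encodes KChIP2, the subunit that carries Kv4 channels of the transient outward current to the membrane. It read 7.02, 7.58 and 6.61 in SRFHKO hearts against 9.29, 8.51 and 9.02 in control hearts at day 25, and 8.64, 9.05, 8.95 and 8.81 in SRFHKO hearts against 9.52 and 9.32 in control hearts at day 8. SRFHKO hearts were lower on both days, and those of day 25 lay below the other 9 hearts. The effects were -1.87 ± 0.25 (adjusted p = 0.000975) and -0.56 ± 0.27 (adjusted p = 0.58), and the difference was -1.31 with a 95% interval of -2.09 to -0.53 (adjusted p = 0.20). A second Kcnip2 probe set gave -1.14 and 0.13. Pdk2 (chromosome 11), a kinase that inhibits pyruvate dehydrogenase, had effects of -0.57 ± 0.11 and 0.19 ± 0.11 and a difference of -0.77 (adjusted p = 0.131).

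Myh7 (chromosome 14) encodes beta-myosin heavy chain, the slow isoform that mouse ventricles replace with alpha after birth. It read 12.40, 12.66 and 12.30 in SRFHKO hearts against 9.14, 9.41 and 9.82 in control hearts at day 25, and 11.36, 13.00, 10.75 and 12.68 in SRFHKO hearts against 11.89 and 11.94 in control hearts at day 8. The group that stood apart was the control hearts of day 25, and at day 8 the SRFHKO hearts spread to both sides of the control hearts. The effects were 3.00 ± 0.38 (adjusted p = 0.000562) and 0.03 ± 0.40, and the difference was 2.96 with a 95% interval of 1.80 to 4.13 (adjusted p = 0.115). Control hearts of day 25 with phenylephrine read 13.01, 12.55 and 12.74, and with those hearts and their SRFHKO counterparts averaged in, the day 25 effect was 1.33. Myl1 (chromosome 1), a skeletal muscle myosin light chain, read 9.56, 10.16 and 9.94 in SRFHKO hearts against 7.76, 7.98 and 6.86 in control hearts at day 25, and 5.91 to 7.75 against 7.55 and 7.62 at day 8. Here the SRFHKO hearts of day 25 stood above the other 9, with effects of 2.35 ± 0.44 (adjusted p = 0.00946) and -0.67 ± 0.46. Of 7 measured markers of skeletal muscle, Myl1 rose and Ckm fell at day 25, and the other 5 were not past the threshold.

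Other genes near the top of the difference, chosen for it, had effects of opposite sign on the 2 days, none of them past the threshold at day 8. Mapre2 (chromosome 18), a microtubule plus-end protein, had effects of 0.76 ± 0.16 at day 25 and -0.47 ± 0.17 at day 8. Cldn12 (chromosome 5), a claudin, had effects of 0.40 ± 0.11 and -0.41 ± 0.11, past the threshold on neither day, and Gdap10 (chromosome 12) of -0.82 ± 0.21 and 0.76 ± 0.22, with a day 25 call that was lost in 9 of the 12 fits that left out 1 array. The genotypes of these 3 genes did not overlap on either day, in opposite directions, as was so for 189 of all genes tested (1.5%), against 380 that did so in the same direction (3.01%). Mib1 (chromosome 18), a ubiquitin ligase for Notch ligands, had effects of 0.84 ± 0.14 and -0.23 ± 0.15. Gcnt1 (chromosome 19), a glycosyltransferase that branches O-glycans, was at least 3.27-fold higher at day 25 (adjusted p = 0.00209) and differed by -0.13 ± 0.27 at day 8. Among the largest falls at day 25, Zfp30 (chromosome 7), a zinc finger protein, had effects of -3.40 ± 0.44 and -0.87 ± 0.46. Stbd1 (chromosome 5), a glycogen-binding protein, was at least 6.13-fold lower at day 25 (adjusted p = 0.0307). It averaged an effect of -1.59 when the hearts with phenylephrine were included, and its call was lost in 5 of the 12 fits that left out 1 array.

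**Figure D3:**
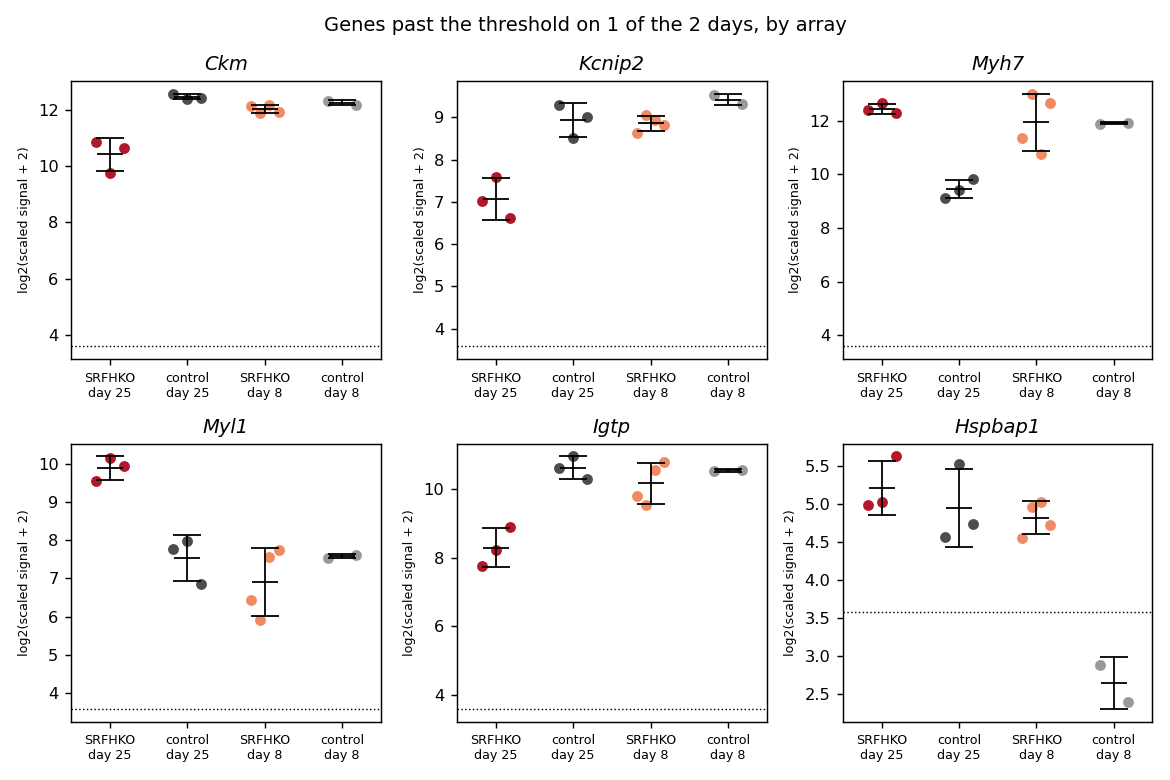
Log2(scaled signal + 2) per heart for Ckm, Kcnip2, Myh7, Myl1, Igtp and Hspbap1 in SRFHKO and control hearts at day 25 and at day 8, each past the threshold on 1 of the 2 days. Points are single arrays, bars the group mean ± SD and the dotted line the filter limit of 3.58; the group apart from the rest is SRFHKO of day 25 for Ckm, Kcnip2, Myl1 and Igtp, control of day 25 for Myh7, and control of day 8 for Hspbap1.

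**Figure D4:**
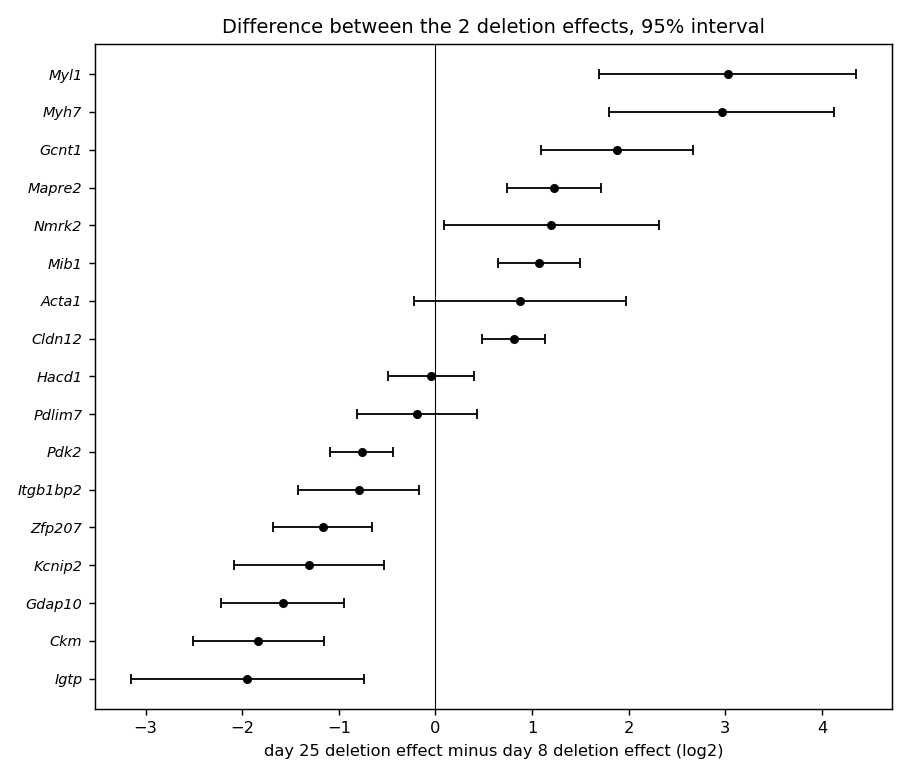
Difference of the deletion effects, day 25 minus day 8 in log2, for genes named in the text. Points are limma estimates and bars their 95% intervals, not adjusted for the number of genes; those of Hacd1, Pdlim7 and Acta1 cross 0. Esr1 and 2900093K20Rik, with both control hearts of day 8 below the filter limit, are not drawn.

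The 8 genes past the threshold at day 8 were the 4 lasting ones and 4 rises: Hspbap1, a protein that binds heat shock protein 27, Zfp207, Lsm6, an RNA-binding protein of the U6 spliceosome particle, and 2900093K20Rik. Hspbap1 (chromosome 16), read here from a probe set open to similar transcripts, read 4.55, 4.96, 5.02 and 4.72 in SRFHKO hearts against 2.89 and 2.41 in control hearts at day 8, and 4.98, 5.02 and 5.62 in SRFHKO hearts against 4.56, 5.53 and 4.74 in control hearts at day 25. Both control hearts of day 8 lay below the other 10 hearts and below the filter limit, which was the pattern of all 4 genes as far as the order of the hearts goes. At day 8 Hspbap1 was at least 2.35-fold higher (adjusted p = 0.00842) and 2900093K20Rik at least 2.52-fold higher (adjusted p = 0.0111). The effect of Zfp207 was 1.08 ± 0.18 (adjusted p = 0.0196). At day 25 these 3 genes had effects of 0.27 ± 0.29, -0.31 ± 0.28 and -0.09 ± 0.17, and Lsm6 had 0.34 at day 25 beside 0.75 at day 8. In a fit on the 12 arrays alone, 1 gene was past the threshold at day 8, and Hspbap1, 2900093K20Rik and Zfp207 were not (adjusted p = 0.053 for each). Without the filter on low values the Hspbap1 effect at day 8, then read from another probe set, was 0.94 (adjusted p = 0.82). Without control replicate 2 of day 8, Hspbap1 (adjusted p = 0.11), 2900093K20Rik (adjusted p = 0.11) and Zfp207 (adjusted p = 0.30) were no longer past the threshold.

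In the other direction, genes with an unadjusted p under 0.05 at day 8 were followed to the day 25 arrays. Of 555 genes higher in SRFHKO hearts at day 8, 316 (56.9%) were above 0 at day 25, against 44.3% of all genes, and 90 (16.2%) had an unadjusted p under 0.05 in the same direction, against 8.23%. Of 547 lower genes, 350 (64.0%) were below 0 at day 25, against 55.7% of all genes, and 97 (17.7%) had such a p in that direction, against 10.1%. Both control hearts of day 8 lay below the other 10 hearts in 192 of the 555 and above them in 134 of the 547, against 2.95% and 2.71% of all genes, and as these arrays also chose the genes, those counts are a description.

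Reading every probe set in place of 1 per gene, 11 of 27000 were past the threshold for the difference (0.0407%), 3 higher and 8 lower, and 3316 had an unadjusted p under 0.05. Of the 11, 2 were the probe sets already used for Ckm and 2900093K20Rik. A Riok3 probe set had a difference of -2.38 ± 0.28 (adjusted p = 0.00153). It read 5.22, 5.34 and 4.84 in SRFHKO hearts against 7.79, 7.78 and 7.80 in control hearts at day 25, and 5.25 to 5.77 against 5.50 and 6.05 at day 8, so the control hearts of day 25 alone were high. The other 3 Riok3 probe sets had differences of 0.01 to 0.79. An H2-K1 probe set, which belongs to a major histocompatibility class I gene with near-identical relatives and is uncertain for that reason, had a difference of -2.15 ± 0.26 (adjusted p = 0.00185). The other 3 H2-K1 probe sets pointed the same way, with differences of -1.50 to -1.15. For Clpx and Klhl24 the other probe sets of the gene were near 0 or smaller in size, at -0.45 for Clpx and between -0.18 and 0.39 for Klhl24. Slc25a5 and Ran passed only through probe sets of the kind that can read similar transcripts. A probe set with no gene name was lower in SRFHKO hearts at day 25 and higher at day 8, both past the threshold in this fit. Its SRFHKO hearts of day 25 and control hearts of day 8 all lay below the filter limit, so no size is given.

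The gene lists were read by their counts and medians. Over all genes the median effect was -0.05 at day 25 and -0.00 at day 8. Genes that respond to interferon, which include the machinery that presents antigen on class I molecules, had a median of -0.72 at day 25 and -0.05 at day 8 over 34 measured genes. At day 25, 9 of the 34 fell, against 1.08% of all genes, and none rose, and at day 8 none was past the threshold or had an unadjusted p under 0.05. The difference had an unadjusted p under 0.05 in 13 of the 34, against 11.2% of all genes. Igtp (chromosome 11), an interferon-inducible GTPase, read 7.74, 8.24 and 8.90 in SRFHKO hearts against 10.62, 10.95 and 10.29 in control hearts at day 25, and 9.79, 9.53, 10.56 and 10.78 in SRFHKO hearts against 10.52 and 10.57 in control hearts at day 8. The SRFHKO hearts of day 25 were below the other 9, and the day 8 groups overlapped. Its effects were -2.32 ± 0.39, or 5.01-fold lower (adjusted p = 0.00573), and -0.38 ± 0.42.

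The related Irgm2 (chromosome 11) had effects of -2.56 ± 0.48 at day 25 and -0.20 ± 0.51 at day 8, and Tap1 (chromosome 17), which carries peptides to class I molecules, of -1.76 ± 0.35 and -0.34 ± 0.37. With array brightness as a covariate the day 25 calls of Igtp, Irgm2 and Tap1 were lost (adjusted p = 0.12, 0.12 and 0.19), with effects of -1.86, -2.46 and -1.49. Irf1, a transcription factor of this response, had effects of -0.92 and -0.06, Psmb9, a subunit of the immunoproteasome, of -1.35 and 0.09, and B2m, the light chain of class I molecules, of -0.88 and -0.04. The summed signal of the list was 5644 to 18529 in SRFHKO hearts against 17797 to 24474 in control hearts at day 25, and 16691 to 25047 against 21350 to 22238 at day 8. SRFHKO hearts of day 25 varied widely among themselves: the median difference of -0.76 became -0.32 without SRFHKO replicate 1 of day 25 and -1.18 without its replicate 3. The summed signal of 5 lymphocyte markers measured, of 16 listed, was 93.0 to 730 in SRFHKO hearts against 495 to 2181 in control hearts at day 25, and 163 to 342 against 248 to 301 at day 8. It was led by Igha (chromosome 12), the heavy chain of immunoglobulin A, at 6.56, 7.74 and 4.79 in SRFHKO hearts against 10.81, 10.76 and 8.48 in control hearts at day 25. That of 18 macrophage and monocyte markers overlapped between genotypes on both days. Their part in the interferon result was not tested. In bulk tissue, fewer cells of a type and less RNA per cell cannot be told apart.

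Genes of mitochondrial energy production were slightly lower at day 25. Of 56 measured genes of oxidative phosphorylation, 8 fell and 1 rose at day 25, against 1.08% and 1.26% of all genes, and none was past the threshold at day 8, with medians of -0.26 and -0.06. Uqcrc1, a core subunit of complex III, had effects of -0.45 ± 0.09 (adjusted p = 0.0136) and -0.03 ± 0.09, and Ndufv3, of complex I, of -0.50 ± 0.10 (adjusted p = 0.0104) and -0.06 ± 0.10. Cox8a, a small subunit of complex IV, was the one that rose, with 0.62 ± 0.10 (adjusted p = 0.00361) and 0.03 ± 0.10. Of 22 genes of the TCA cycle, citrate synthase (Cs), Sdhb and Suclg1 fell at day 25, and the medians were -0.22 and -0.01. Their calls were lost in 3, 4 and 6 of the 12 fits that left out 1 array, and with quantile normalization none of the 3 was past the threshold (adjusted p = 0.12 for Cs, 0.058 for Sdhb and 0.091 for Suclg1). Of 40 genes of fatty acid oxidation and elongation, Acadvl and Hacd1 fell at day 25 and Hacd1 alone at day 8, with medians of -0.20 and -0.00. The Acadvl call was lost in 4 of the 12 fits that left out 1 array, and with quantile normalization (adjusted p = 0.094). With quantile normalization the day 25 median was -0.13 for oxidative phosphorylation, -0.13 for the TCA cycle and -0.20 for fatty acid oxidation. The day 8 median of oxidative phosphorylation was 0.06 without control replicate 1 of day 8 and -0.19 without its replicate 2. The summed signal of 17 cardiomyocyte markers, which include abundant sarcomere genes, was 129726 to 150330 in SRFHKO hearts against 160482 to 175443 in control hearts at day 25, and overlapped at day 8. Its part in these shifts was not tested.

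Among 34 measured genes of the actin cytoskeleton that are known SRF targets, Acta1, Itgb1bp2 and Pdlim7 fell and Fhl1 rose at day 25, against 1.08% of all genes lower and 1.26% higher, and Acta1 alone fell at day 8. The list medians were -0.14 and -0.12. Acta2, smooth muscle alpha-actin, had effects of -0.28 ± 0.20 and -0.81 ± 0.21, and Actc1, cardiac alpha-actin, of -0.37 ± 0.11 and -0.28 ± 0.12, none past the threshold. Fhl1 (chromosome X), a LIM protein that rises in stretched muscle, had effects of 0.64 ± 0.16 (adjusted p = 0.0393) and -0.36 ± 0.17. Its day 25 call was lost in 5 of the 12 fits that left out 1 array. Among 31 sarcomere genes, Myh7 and Myl1 rose and Tnnc1, Myl3 and Myom1 fell at day 25, and none was past the threshold at day 8. Tnnc1 (chromosome 14), cardiac troponin C, read 12.60, 12.39 and 12.44 in SRFHKO hearts against 13.18, 12.96 and 13.14 in control hearts at day 25, and 12.39 to 12.57 against 12.70 and 12.53 at day 8. The groups were apart at day 25 and overlapped at day 8, with effects of -0.62 ± 0.09 (adjusted p = 0.00218) and -0.14 ± 0.10. Myl3 (chromosome 9), the ventricular light chain, had effects of -0.73 ± 0.11 (adjusted p = 0.00322) and -0.07 ± 0.12. The sarcomere median was -0.11 at day 25 and turned to 0.01 with quantile normalization.

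Few genes used as signs of stress were past the threshold. The natriuretic peptide genes Nppa and Nppb had effects of -0.16 ± 0.16 and -0.05 ± 0.28 at day 25, and of -0.73 ± 0.17 and -0.73 ± 0.30 at day 8, none past the threshold. Ankrd1, a stretch-responsive ankyrin repeat protein, had effects of 0.52 ± 0.19 and 0.11 ± 0.20. Of 21 heat shock protein genes, Hsp90aa1 and Hspa4 rose at day 25 and none was past the threshold at day 8, with medians of 0.22 and 0.00. Hsp90aa1 (chromosome 12) had effects of 1.09 ± 0.21 (adjusted p = 0.0105) and 0.29 ± 0.22. The call of Hspa4 (adjusted p = 0.0429) was lost in 7 of the 12 fits that left out 1 array, and that of Hsp90aa1 in 2. Chaperones of the endoplasmic reticulum showed the reverse order of medians, -0.02 at day 25 and 0.29 at day 8 over 24 genes, with none past the threshold on either day. Without control replicate 1 of day 8 their day 8 median was 0.08, and without replicate 2 it was 0.48.

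For several matrix and fibroblast genes 1 control heart of day 8 stood high. Of 46 extracellular matrix genes none was past the threshold on either day, with medians of -0.19 at day 25 and -0.25 at day 8. Without control replicate 2 of day 8 the day 8 median was -0.18. At day 8, 13 of the 46 had an unadjusted p under 0.05, against 8.74% of all genes. At day 25, 4 did, against 18.3%. Their summed signal at day 8 was 19830 to 24079 in SRFHKO hearts against 24644 to 32384 in control hearts, and overlapped at day 25. Col1a1, a chain of type I collagen, read 8.63, 7.31, 7.87 and 7.87 in SRFHKO hearts against 8.17 and 10.80 in control hearts at day 8, and Postn, the fibroblast protein periostin, 8.46, 7.46, 7.72 and 7.69 against 8.31 and 9.94. Control replicate 2 was the high one for both, and it was also the higher for Acta1, Fn1, Egr1 and Fos. The plot of list medians gives both days for every list and marker set.

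**Figure D5:**
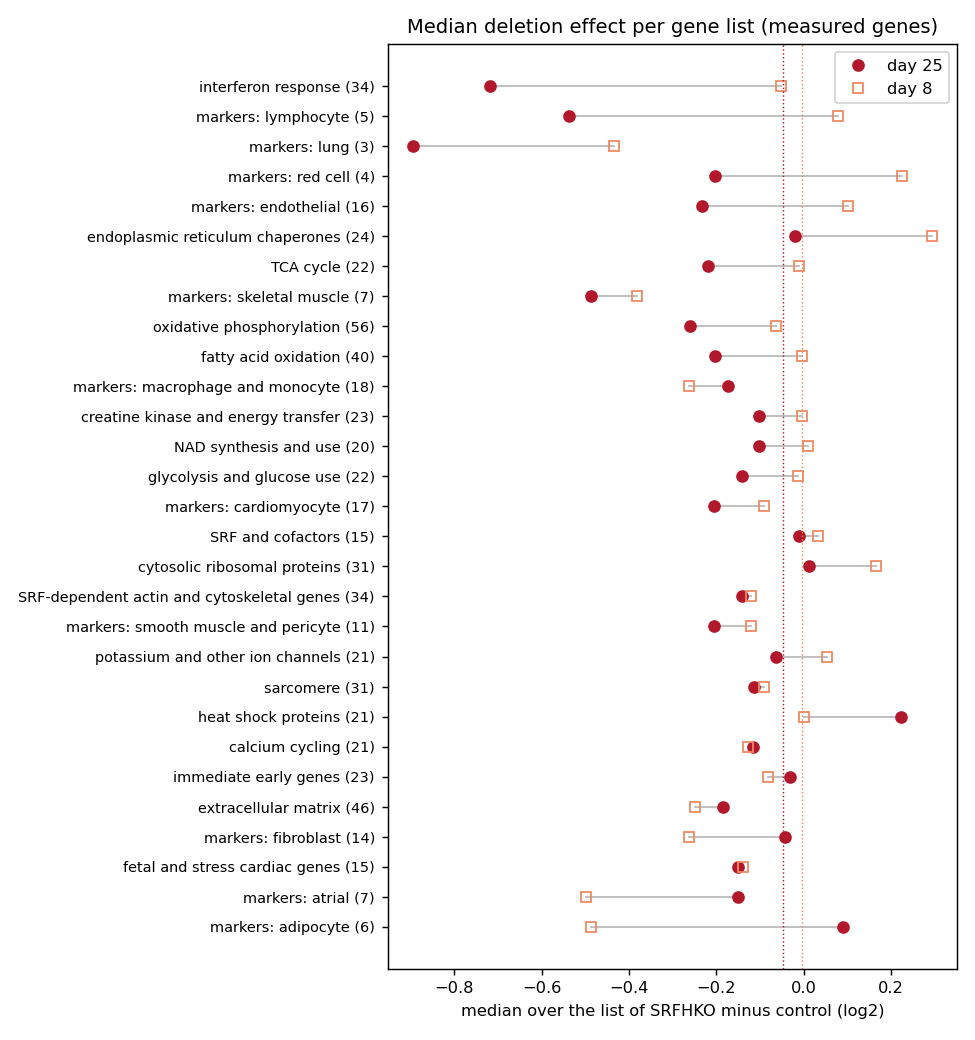
Median deletion effect over each gene list, SRFHKO minus control in log2, at day 25 (filled circles) and day 8 (open squares), with the number of measured genes in brackets; dotted lines are the medians over all 12610 genes. The interferon list has the longest line among lists of more than 10 genes, with medians of -0.72 and -0.05.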

How the data were processed

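The deposited signal intensities came from Affymetrix expression arrays hybridised with biotinylated cRNA from Trizol-extracted ventricles, and were made by the authors with GCOS, whose version is not given, per the submitters' processing notes. Of 45101 probe sets, 64 controls were left out. Each array was scaled to a common 2% trimmed mean of 90.6 and read as log2(scaled signal + 2). Probe sets with a mean at or above the 40th percentile of all (3.58) were kept. Among those with 1 symbol, the brightest stood for its gene, those open to similar transcripts (x_at) only where no other was left, which gave 12610 genes. In all, 34945 probe sets had 1 symbol, 932 several and 9160 none, and gene IDs of 34754 were found in RefSeq (GRCm38.p6). All 18 arrays in 6 groups were fitted with limma 3.58.1 (R 4.3.3, intensity trend), with Benjamini-Hochberg adjustment at 0.05. The difference, both day effects and their mean were contrasts of 12 arrays. Nothing in the labels says more than that arrays are separate hearts. An exact permutation test of 3 against 3 arrays cannot go below 0.1.

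Genes named were the 5 smallest p for the difference in each direction, genes past the threshold on both days, the 10 largest lasting rises and falls, the 5 largest rises and falls of each day, a core list, and up to 4 genes per list, from 18 gene lists and 11 marker lists. Members and lists were chosen with earlier results of these data known. Itga9, Gstp1, Lsm6, Irf1, Psmb9, B2m and Myom1 fall outside that rule and were chosen after their values were seen. The alternatives tried were quantile normalization, other pseudocounts (1 and 16), no filter, the 12 arrays alone, the replicate number as a block, array brightness as a covariate, no intensity trend, every probe set, and each array left out in turn. A day 25 effect averaged over hearts with and without phenylephrine was added after seeing the data.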

Additional observations from a re-analysis of the deposited data

Results flagged for a closer look

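Of 133 named genes checked in the 4 SRFHKO hearts of day 8, the group large enough for the check, 7 had 1 heart far from the other 3, and chance alone gives about 1 in 20. The distant heart was the high one for Prkg1, at a log2 signal of 8.70 (next 8.01), for Acta2 at 10.12 (next 9.98), for the stress sensor gene Atf6 at 9.40 (next 9.28) and for the pericyte marker Pdgfrb at 9.02 (next 8.80). It was the low one for Pdk2 at 10.55 (next 10.80), for Cidea, a lipid droplet protein, at 8.16 (next 8.57) and for 2900093K20Rik at 4.55 (next 4.98).

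With every probe set in the fit, limma called 11 differences between day 25 and day 8. Lower at day 25 relative to day 8 were probe sets of Riok3 (-2.38), 2900093K20Rik (-2.30), H2-K1 (-2.15), Ckm (-1.83), the mitochondrial chaperone gene Clpx (-1.77) and Klhl24 (-1.68), and 2 with no gene name (-4.03 and -1.54). The values of 2900093K20Rik and of the -4.03 probe set are fitted ones that rest on groups below the filter limit, so their sizes are not exact. Higher were a probe set of the nuclear transport GTPase gene Ran (0.82) and 2 of Slc25a5, the mitochondrial ADP/ATP carrier (1.14 and 1.15).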

How the results depend on the processing

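Counts are given as higher and lower genes. The fit on the 12 arrays alone gave 103 higher genes at day 25, 1 and 0 at day 8, 33 and 33 for the mean effect, 1 gene past the threshold on both days and 53 with a mean effect and no overlap. Array brightness as a covariate gave 22 and 17 at day 25, 29 and 26 for the mean effect and 38 without overlap. Without the intensity trend there were 1 lower gene for the difference, 77 and 70 at day 25, 3 and 0 at day 8, 26 and 20 for the mean effect, 1 on both days and 38 without overlap. Every probe set gave 3 and 8 for the difference, 338 and 253 at day 25, 40 and 6 at day 8, 384 and 172 for the mean effect and 356 without overlap, with more features tested. Averaging in the hearts with phenylephrine, chosen after seeing the data, gave 502 and 494 at day 25 and 115 and 150 for the mean effect. With the replicate number as a block, 1 gene was lower at day 8 and 2 were past the threshold on both days. Deviations of same-numbered arrays among the 12, taken after scaling, correlated between -0.08 and 0.08, as did those of different numbers. Before scaling, replicate 2 was the brightest and replicate 3 the dimmest array of each day 25 group. Their trimmed means were 83.5 and 71.2 in SRFHKO hearts, and 68.5 and 46.6 in control hearts. Whether same-numbered hearts were handled together was not tested. Leaving out 1 array at a time gave 0 to 10 and 0 to 5 for the difference, 24 to 184 and 32 to 213 at day 25, 2 to 21 and 0 to 30 at day 8, 22 to 87 and 23 to 122 for the mean effect, 0 to 5 on both days and 37 to 135 without overlap. The day 8 median of genes called at day 25 ran from 0.03 to 0.16 for rises and from -0.22 to -0.03 for falls. With a control heart of day 8 left out, the other is assumed to vary like the other groups. Differences that changed sign were those of Actc1 (0.15 with quantile normalization, 0.13 with brightness, -0.25 to 0.077 with 1 array left out), Esr1, whose control hearts lay near background (-0.52 with the phenylephrine hearts, -0.022 to 1.40 with 1 array left out), and, with 1 array left out, Acta1 (-0.00338 to 1.76), Egr1 (-0.033 to 2.03) and Hacd1 (-0.21 to 0.095). The cause was not tested. Of single-gene results, 2210 kept direction and side, 398 lost and 6 gained the call. The number of arrays, 2 for control hearts of day 8, limits the precision.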

Other observations

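Other gene lists held 1 or a few genes past the threshold at day 25 and none at day 8. Of 21 ion channel genes, Gja1, the gap junction protein connexin 43, rose (effects of 0.74 at day 25 and 0.16 at day 8), as did Kcnj11, and Kcnip2 fell, with list medians of -0.06 and 0.05. Of 21 calcium cycling genes, Cacnb2, a subunit of the L-type calcium channel, rose (0.64 and 0.35). Of 22 glycolysis genes, Pgam1, phosphoglycerate mutase, rose (0.80 and -0.15), and Pfkm, muscle phosphofructokinase, fell (-0.37 and 0.05), as did Stbd1. Of 23 genes of energy transfer, Ckm and the AMPK subunit gene Prkab2 fell (-0.72 and -0.22 for Prkab2). With the hearts given phenylephrine averaged in, the day 25 effects of Prkab2 (-0.19), Myocd (0.40), Cacnb2 (0.33), Dusp1 (0.30) and Cldn5 (-0.36) were no longer past the threshold (adjusted p = 0.19, 0.062, 0.051, 0.055 and 0.12). Of 15 genes of SRF and its cofactors, Myocd, the gene of myocardin, rose (0.78 and -0.03). Of 23 immediate early genes, the phosphatase gene Dusp1 rose (0.62 and 0.09). Several of these day 25 calls were lost in some of the 12 fits that left out 1 array. They were lost in 5 fits for Kcnj11 and Cldn5, in 4 for Cacnb2, Pfkm and Myocd, in 3 for Gja1 and in 2 for Dusp1. Of 31 cytosolic ribosomal protein genes none was past the threshold on either day, with medians of 0.01 and 0.17. The day 8 median lay between 0.07 and 0.23 over all alternatives. At day 8, 13 of the 31 had an unadjusted p under 0.05, against 8.74% of all genes. At day 25, 3 did, against 18.3%. The mean effect of Rpl7 was past the threshold at 0.36 (adjusted p = 0.0168), and between 0.24 and 0.39 over all alternatives.

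Among markers of other cell types, 16 endothelial genes had medians of -0.23 at day 25 and 0.10 at day 8, and Cldn5, a tight junction claudin, fell at day 25 (-0.81 and -0.26). Their summed signal was 10831 to 11845 in SRFHKO hearts against 12967 to 13210 in control hearts at day 25, and overlapped at day 8. Of 3 measured lung markers, Napsa, a protease of the lung epithelium, was at least 1.56-fold lower at day 25 (adjusted p = 0.0177). The summed signal of the 3 was 27.5 to 37.1 in SRFHKO hearts against 49.1 to 104 in control hearts at day 25, and 30.5 to 46.1 against 43.9 to 63.7 at day 8. Markers of fibroblasts, smooth muscle, atrium, fat and red cells had no gene past the threshold on either day. At day 8 the summed signal of fibroblast markers was 12494 to 15851 in SRFHKO hearts against 16848 to 20532 in control hearts. That of smooth muscle was 7147 to 7777 against 8339 to 9496, and that of atrium 6071 to 9944 against 10379 to 11780. The genotypes overlapped in these sums at day 25, and on both days in those of fat and red cells.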
